A study of Homo sapiens with 8 samples.

Results

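The nuclear pore complex is the channel through which RNA and protein pass between nucleus and cytoplasm, and nuclear transport receptors are the carriers that take cargo through it. The genes described here were those whose platform symbol names a numbered nucleoporin (NUP), importin (KPNA, KPNB, IPO) or exportin (XPO), together with NDC1, POM121, TPR, RANBP2, SEC13, SEH1L, AAAS and RAE1. This gave 55 genes of 19775 on the array. Of these, 50 were protein-coding, 31 of them nucleoporins and 19 transport receptors, and 5 were pseudogenes or non-coding transcripts (IPO5P1, NUP210P1, NUP50-DT, NUP133-DT and IPO9-AS1). Each gene was read at its brightest probe set, by the mean of all 8 arrays. That mean chose the probe set and is given below only as a description; the difference between the substrates took no part in the choice. The genes were selected as a family with earlier results of these arrays known, so counts over them describe the family and are not independent evidence of its direction.

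Expression had been measured in MDA-MB-231, an established line of triple-negative human breast cancer cells, on 4 arrays of cells grown on a soft substrate and 4 of cells grown on a stiff one, all after 2 days in DMEM/F12 medium with serum; the labels name no other treatment. Each group had biological replicates lettered A to D. The labels do not say what separated them, and p-values therefore reflect only how far these samples vary. No stiffness value is stated in the labels, and a single line was studied. Values are log2 RMA levels, a scale on which a difference of 1 is a 2-fold change and on which levels of different probe sets cannot be set against each other.

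As a check of the label, all 6 genes typical of this line (VIM, CD44, AXL, CAV1, FOSL1 and EGFR) had group means of 10.45 or more, of which AXL, a receptor kinase, fell by 0.23 on soft (adjusted p = 0.0318), whereas CDH1, ESR1 and PGR lay under the background level of 6.52, the 95th percentile of 16 genes taken as silent in breast cells. EPCAM, GATA3 and ERBB2, also listed as low in this line, lay above it, with stiff means of 9.94, 8.32 and 7.96. Of 6 measured markers of other cell types, PTPRC, CD3E, CDH5, DCN and LUM were under background. CD3E was also among the 16 genes that set the background level, so its place under that level is not a separate check. PECAM1 was above background, at 7.52 on stiff and 8.01 on soft (adjusted p = 0.00211). Its part in the results below was not tested. Over all probe sets stiff A correlated with B at 0.9981 and C with D at 0.9982, and the other 4 pairs of stiff arrays at 0.9965 to 0.9973, so results are also given against each of these pairs.

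The pore is built from rings of nucleoporins that are stacked around a central channel. The Y complex forms the outer rings, the inner ring holds the channel together, membrane nucleoporins anchor it in the nuclear envelope, and nucleoporins rich in phenylalanine-glycine (FG) repeats fill the channel. Importins carry cargo inwards and exportins outwards, and the small GTPase Ran, loaded with GTP in the nucleus, makes importins release and exportins bind their cargo. In dividing mammalian cells the pore is taken apart and rebuilt at each mitosis, and new pores are inserted during interphase.

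A set of pore genes and 1 import receptor were lower in cells on the soft substrate, by small amounts. Of the 55 genes, 10 fell on soft, none rose and 45 did not pass the threshold (limma, adjusted p under 0.05 over all 54613 probe sets). Over all genes 5.93% were called lower and 4.39% higher. NDC1 fell by 27.3%, IPO4 fell by 26.0% and NUP155 fell by 21.7% of the level on stiff. The smallest called change was in NUP62, which fell by 14.3%. NUP98, NUP43, NUP42, NUP37, NUP107 and RAE1 were the others. Of the 10, 9 were nucleoporins, and IPO4 was the only transport receptor.

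Many of the genes that were not called also had lower levels on soft. At an unadjusted p under 0.05, 29 of the 55 were lower and 0 higher, where 13.7% and 11.3% of all genes were. Every soft array lay under every stiff array for 29 of them (11.2% of all genes), and the reverse held for 0 (8.78% of all genes). Of the 55 differences 43 were negative, 11 positive and 1 was 0, where 47.6% of all genes had a negative difference. The median difference was -0.14 on the log2 scale, against 0.0075 for all genes. Calls are more frequent among well expressed genes, and 50 of the 55 were above background. Of these 50, 10 (20%) were called lower and none higher, where 10.0% and 7.37% of all genes above background were. The medians there were -0.15 and -0.025, and every soft array lay under every stiff array for 29 of the 50, against 18.9% of all genes above background. The median stayed negative under each of the 3 other scalings between arrays, from -0.11 to -0.16. In whole-culture RNA, a smaller share of cells with a high level and less RNA in each cell cannot be told apart.

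**Figure D1:**
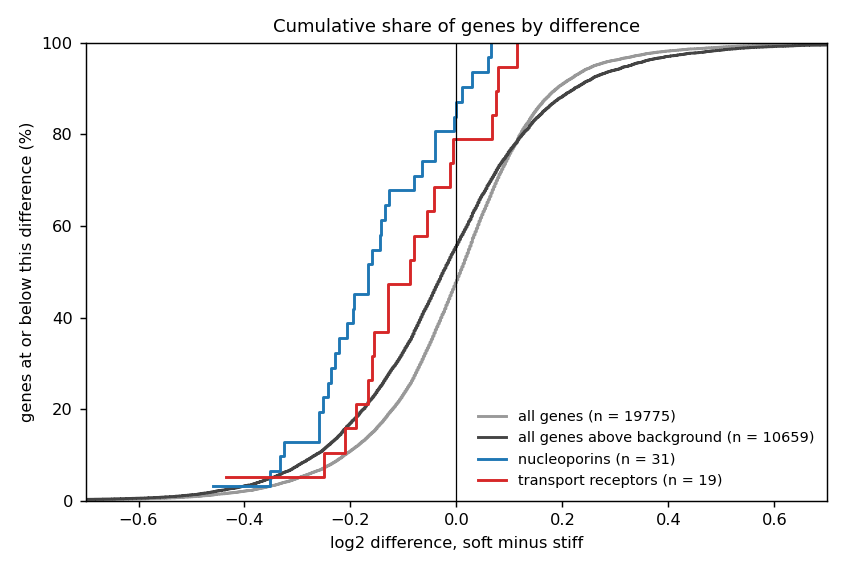
Cumulative share of genes (vertical axis, percent) with a log2 difference, soft minus stiff, at or below the value on the horizontal axis, for all 19775 genes, the 10659 above background, the 31 nucleoporins and the 19 transport receptors. The nucleoporin curve lies left of both curves of all genes over most of its length, with a median of -0.17, and the receptor curve lies between, with a median of -0.09.

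The number of calls rested on the arrays and on the variance model. Leaving out any array but soft C left 3 or 4 genes called, with 2.77% to 3.84% of all genes called lower, and leaving out soft C gave 12 (6.06% of all genes). NDC1, IPO4 and NUP155 were called in every one of these 8 fits. With only genes above background fitted, 24 of 50 were called lower (17.6% of all genes there), and with a trended, robust variance model 20 of 55 (8.89%). None was called higher in any of these fits. Against stiff A and B alone 2 genes were called, NDC1 and NUP155 (2.66% of all genes), and against stiff C and D alone none (1.96%). All 10 differences stayed negative in both, from -0.58 to -0.20 against A and B and from -0.42 to -0.19 against C and D.

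**Figure D2:**
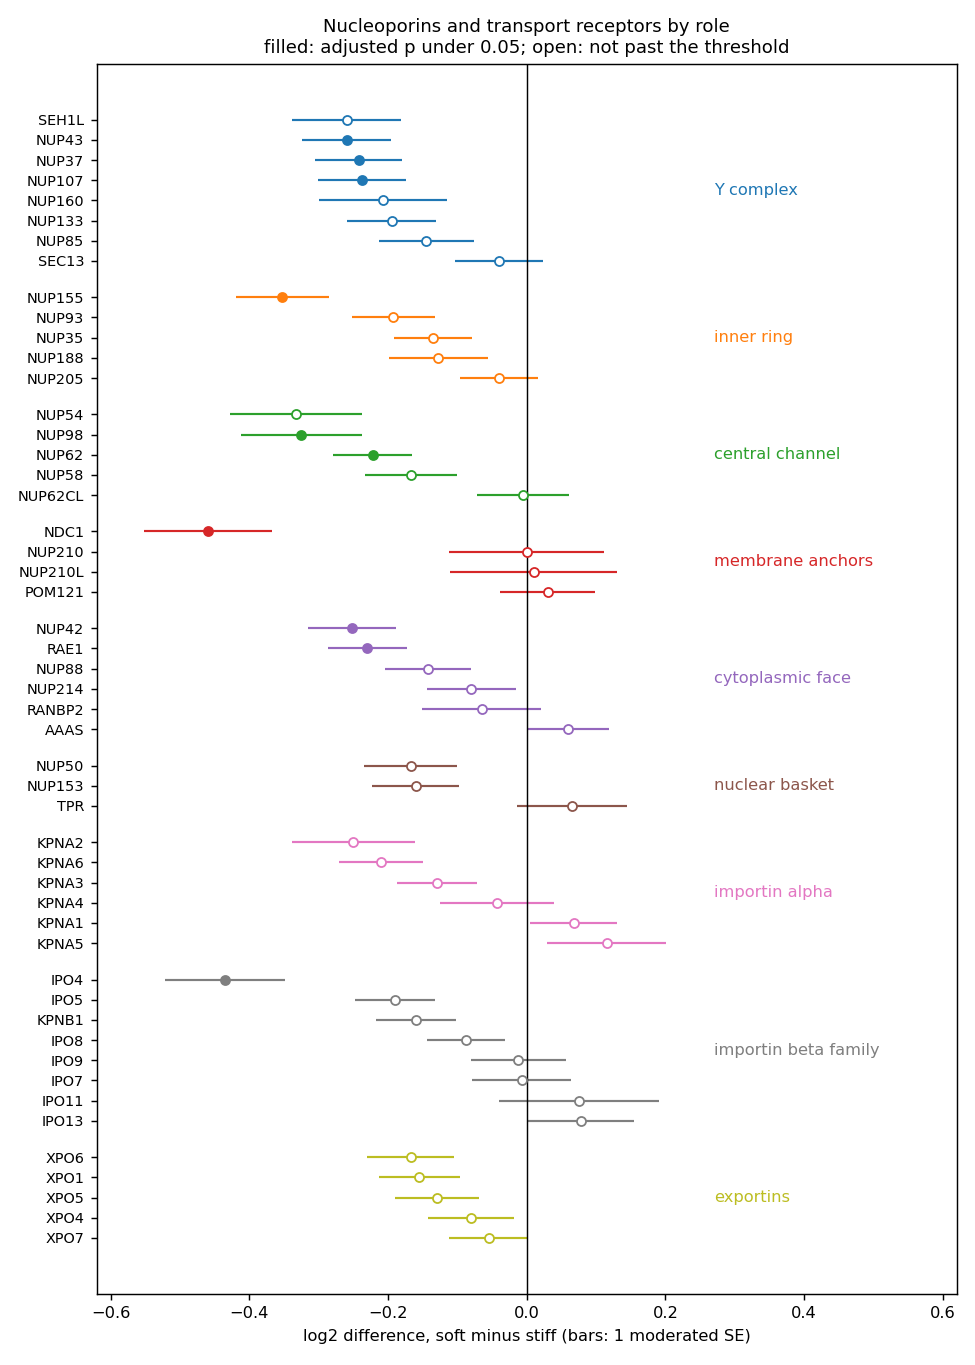
Log2 difference, soft minus stiff, of the 50 protein-coding genes, grouped by role, with bars of 1 moderated standard error; filled points passed adjusted p under 0.05. The 10 filled points all lie left of 0, and 8 of the 50 genes lie right of 0, none of them filled.

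To show the start sites of the genes that moved most, promoters were read from RefSeq (GRCh38.p14), as the 250 bases before each annotated start. Of the 50 protein-coding genes 45 had an entry, with 57 starts in all. KPNA4, KPNA5, KPNB1, NUP43 and XPO7 had none. The 4 called genes with the largest differences are printed, 5′ to 3′ on the gene's strand; capitals mark any match to the 8 motifs searched.
NDC1: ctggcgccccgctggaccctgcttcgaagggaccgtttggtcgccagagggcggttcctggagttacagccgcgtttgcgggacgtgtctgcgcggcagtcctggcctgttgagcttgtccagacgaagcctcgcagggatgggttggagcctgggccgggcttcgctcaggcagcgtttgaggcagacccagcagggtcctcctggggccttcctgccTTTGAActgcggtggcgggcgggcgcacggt
IPO4: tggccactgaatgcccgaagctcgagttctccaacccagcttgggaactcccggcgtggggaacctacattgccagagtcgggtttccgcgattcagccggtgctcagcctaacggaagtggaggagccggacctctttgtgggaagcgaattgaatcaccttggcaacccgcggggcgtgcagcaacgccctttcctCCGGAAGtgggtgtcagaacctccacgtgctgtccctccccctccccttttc
NUP155: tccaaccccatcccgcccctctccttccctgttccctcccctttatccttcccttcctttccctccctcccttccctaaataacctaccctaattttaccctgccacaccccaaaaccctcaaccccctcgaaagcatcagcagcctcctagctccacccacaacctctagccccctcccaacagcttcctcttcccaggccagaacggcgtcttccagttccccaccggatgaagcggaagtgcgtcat
NUP98: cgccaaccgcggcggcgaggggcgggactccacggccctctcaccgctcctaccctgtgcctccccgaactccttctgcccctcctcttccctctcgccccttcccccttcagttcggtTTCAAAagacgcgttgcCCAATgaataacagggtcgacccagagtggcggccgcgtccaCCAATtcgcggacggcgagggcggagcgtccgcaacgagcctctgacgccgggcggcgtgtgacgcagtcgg
The NDC1 window is chr1:53838297-53838546 on the minus strand, that of IPO4 chr14:24188817-24189066 (minus), that of NUP155 chr5:37371107-37371356 (minus) and that of NUP98, at the first of its 2 listed starts, chr11:3797547-3797796 (minus).

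The motifs were searched on both strands: GCGCATGC (NRF1), CCAAT (NF-Y), CCGGAAG (ETS factors), AAGATGGC (YY1), TTCCCGC and TTGGCGC (E2F), TTTGAA (the cell cycle homology region, CHR) and ACTACAA (ZNF143). No match overlapped a match to another motif in these windows, and the palindrome-like NRF1 motif overlapped itself in 3. Counted from the motif's first base on the gene's strand, the capitals in NDC1 are a CHR match 31 bases before the start, those in IPO4 an ETS match at 52 bases, and those in NUP98 are CCAAT at 114 and 72 bases and a CHR match at 131. NUP155 held none of them. Over the 57 windows, ETS matches were in 24.6%, against 10.7% of 22199 protein-coding promoters and 14.9% of those of genes above background. CHR matches were in 19.3%, against 11.0% and 9.13%, and CCAAT in 42.1%, against 32.7% and 33.4%. NRF1 matches were in 7.02%, against 3.26% and 4.32%, and either E2F form in 12.3%, against 9.85% and 11.8%. YY1 matches were in 3.51%, against 1.38% and 1.81%. ZNF143 matches were less frequent here, in 1.75%, against 2.58% and 3.24%. Counted by gene rather than by window, 6369 of 15843 protein-coding genes held CCAAT, 2215 ETS, 2245 CHR and 688 NRF1. E2F was in 2033 of these genes, YY1 in 281 and ZNF143 in 549. Of the 9 called genes with a window, 4 held CCAAT, 3 ETS, 3 CHR (NDC1, NUP37 and NUP98) and 2 NRF1, and none E2F, YY1 or ZNF143. These are counts of letters in a window, from few promoters and without a test, and say nothing of binding.

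NDC1 is a membrane-spanning nucleoporin that helps to insert and anchor pores in the nuclear envelope. Its level was 11.93, 11.94, 11.68 and 11.71 on stiff A to D and 11.24, 11.23, 11.55 and 11.40 on soft A to D. Every soft array was lower than every stiff array, with stiff A and B highest. The difference was -0.46 (SE 0.0923, adjusted p = 0.0116), and a second NDC1 probe set fell by 0.56 on the log2 scale (SE 0.0852, adjusted p = 0.00316). None of the other 3 membrane nucleoporins passed the threshold. NUP210 differed by 0 (SE 0.112): its stiff arrays A and B, at 7.83 and 7.75, lay above its soft arrays, which were 7.49 to 7.67, and stiff C and D, at 7.34 and 7.38, below them. POM121, read near the background level and closely similar in sequence to POM121C, differed by 0.03 (SE 0.0686), and the testis-type paralog NUP210L, under background, by 0.01.

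NUP155, an inner ring nucleoporin needed to assemble the pore, was at 9.95, 9.98, 9.87 and 9.83 on stiff A to D and at 9.45, 9.52, 9.65 and 9.60 on soft A to D. The groups did not overlap, and the difference was -0.35 (SE 0.0672, adjusted p = 0.00917). It was the only gene of the 55 past an adjusted p of 0.01, where 1.44% of all genes were called lower. None of the other 4 inner ring genes passed the threshold. NUP93, the scaffold that binds the FG nucleoporins of the channel, differed by -0.19 (SE 0.0599, adjusted p = 0.0716), NUP35 by -0.135 (SE 0.0562), NUP188 by -0.13 (SE 0.0711) and NUP205 by -0.04 (SE 0.0560).

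The Y complex, which forms the outer rings and also binds kinetochores in mitosis, had 3 of 8 genes lower and none higher, with all 8 differences negative and a median of -0.22. All 8 were above background, where 10.0% of all genes were called lower and 55.4% had a negative difference. NUP43 was at 12.22, 12.11, 12.16 and 12.12 on stiff A to D and at 11.78, 11.89, 11.97 and 11.93 on soft A to D. NUP37 was at 11.34, 11.34, 11.40 and 11.45 on stiff and at 11.05, 11.15, 11.23 and 11.13 on soft, in the same order. In each case the lowest stiff array exceeded the highest soft array, soft C. Their differences were -0.26 (SE 0.0637, adjusted p = 0.0279) and -0.24 (SE 0.0628, adjusted p = 0.0348). The second probe set of NUP37 differed by -0.405 (adjusted p = 0.00367). That of NUP43, under background, differed by -0.21 (adjusted p = 0.356), and the mean of its probe sets by -0.24 (adjusted p = 0.109). The backbone member NUP107 was at 11.37, 11.48, 11.29 and 11.37 on stiff and at 11.14, 11.12, 11.21 and 11.09 on soft. It differed by -0.24 (SE 0.0632, adjusted p = 0.0392), the nearest arrays being stiff C and soft C. SEH1L, which is shared with a nutrient-sensing complex, differed by -0.26 at the probe set used (adjusted p = 0.0647) and fell by 0.48 at its other one (adjusted p = 0.0172). NUP160, NUP133 and NUP85 differed by -0.21, -0.195 and -0.145, none past the threshold. SEC13, which also coats transport vesicles of the endoplasmic reticulum, differed by -0.04 (SE 0.0638).

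Among 5 genes of the central channel, all above background, NUP98 and NUP62 fell. Of all genes above background 10.0% were called lower. NUP98 encodes an FG nucleoporin and, from the same precursor protein, a subunit of the Y complex. It was at 10.23, 10.23, 10.41 and 10.43 on stiff A to D and at 9.80, 9.96, 10.14 and 10.10 on soft A to D. Stiff A and B were the lower stiff arrays here, the reverse of NDC1, and the difference was -0.325 (SE 0.0875, adjusted p = 0.0410). The 2 further probe sets of NUP98 gave -0.235 (adjusted p = 0.0631) and -0.33 (adjusted p = 0.0240), the latter past the threshold. NUP62, whose FG repeats line the channel, was at 10.92, 10.96, 10.92 and 10.92 on stiff and at 10.67, 10.65, 10.77 and 10.74 on soft. The difference was -0.22 (SE 0.0576, adjusted p = 0.0347), and at its 2 other probe sets it was -0.26 and -0.315, neither past the threshold. NUP54 and NUP58, its partners in the channel, differed by -0.33 (SE 0.0953, adjusted p = 0.0524) and -0.17 (SE 0.0665, adjusted p = 0.154), and the NUP62 relative NUP62CL by -0.005.

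On the cytoplasmic face 2 of 6 genes fell (10.0% of all genes above background), both linked to export of messenger RNA. RAE1, which binds NUP98, was at 11.84, 11.82, 11.86 and 11.93 on stiff A to D and at 11.63, 11.60, 11.65 and 11.65 on soft A to D, with a difference of -0.23 (SE 0.0566, adjusted p = 0.0286). NUP42, which binds the export factor GLE1, was at 8.31, 8.44, 8.42 and 8.32 on stiff and at 8.13, 8.06, 8.21 and 8.08 on soft, with a difference of -0.25 (SE 0.0635, adjusted p = 0.0310). In each the 4 soft arrays were all under the 4 stiff arrays. The other probe sets of RAE1 differed by -0.22 (adjusted p = 0.0616) and, under background, by -0.20 (adjusted p = 0.162). RANBP2, which forms the cytoplasmic filaments, was at 10.71, 10.78, 10.97 and 10.89 on stiff and at 10.66, 10.93, 10.86 and 10.64 on soft. These overlapped, and the difference was -0.065 (SE 0.0862, adjusted p = 0.722). NUP88, NUP214 and AAAS differed by -0.14, -0.08 and 0.06, none past the threshold.

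None of the 3 nuclear basket genes passed the threshold at the probe set used. NUP153 was at 11.77, 11.76, 11.80 and 11.74 on stiff A to D and at 11.51, 11.69, 11.67 and 11.56 on soft A to D, with no overlap and a difference of -0.16 (SE 0.0626, adjusted p = 0.148). Its other probe sets, both under background, differed by -0.27 and -0.46 (adjusted p = 0.0423 and 0.0374). NUP50 differed by -0.17 (SE 0.0670) at the probe set used. Another of its probe sets, above background, fell by 0.36 (adjusted p = 0.0134), and its remaining ones did not pass the threshold. TPR, the long coiled coil of the basket, was at 11.15, 11.01, 10.89 and 10.81 on stiff and at 10.98, 10.97, 11.10 and 11.07 on soft, so that the groups overlapped and the difference was 0.065 (SE 0.0797).

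**Figure D3:**
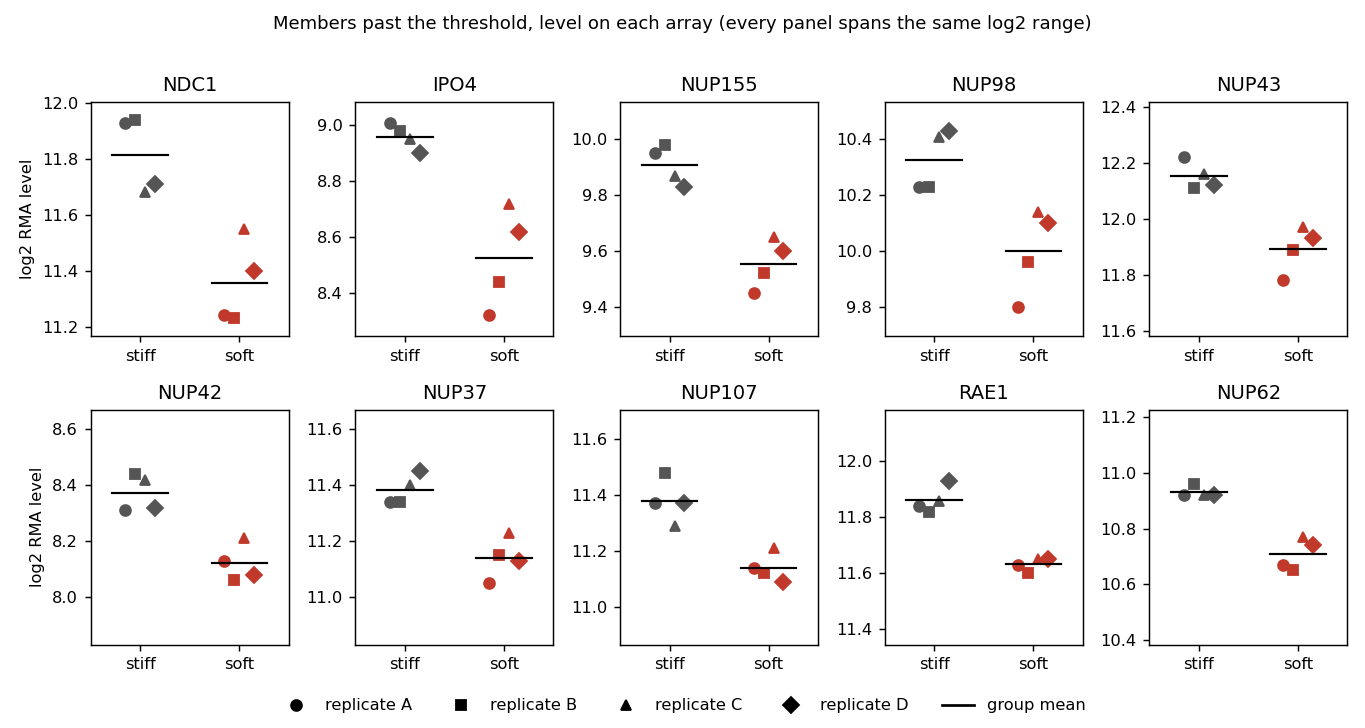
Log2 RMA level (vertical axis) on each of the 4 stiff and 4 soft arrays of the 10 genes past the threshold; the marker shape gives the replicate letter, the bar the group mean, and every panel spans the same range. No soft array reaches a stiff array in any panel, and soft C is the highest soft array in all 10, sharing that level with soft D for RAE1.

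The 19 transport receptors held a single call. IPO4, an importin that carries histones into the nucleus, was at 9.01, 8.98, 8.95 and 8.90 on stiff A to D and at 8.32, 8.44, 8.72 and 8.62 on soft A to D. The stiff arrays lay close together and the soft arrays were spread, from soft A at the bottom to soft C. The difference was -0.435 (SE 0.0863, adjusted p = 0.0109). Among the receptors as a group 15 differences were negative and 4 positive, with a median of -0.09, and 9 had every soft array under every stiff array. Of all genes above background 55.4% had a negative difference, 18.9% had every soft array under every stiff array and 10.0% were called lower. That the nucleoporins, with 9 of 31 called, and the receptors differ in their share of calls was not tested.

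The main import receptor KPNB1 (importin beta 1) was at 13.37, 13.40, 13.32 and 13.31 on stiff and at 13.23, 13.13, 13.21 and 13.19 on soft. No soft array reached a stiff array, yet the difference of -0.16 (SE 0.0576, adjusted p = 0.116) did not pass the threshold. KPNA2, an adaptor that links cargo to KPNB1 and is abundant in dividing cells, was at 13.29, 13.19, 13.38 and 13.23 on stiff and at 12.77, 13.18, 13.08 and 13.06 on soft. Stiff B and soft B nearly met, and the difference was -0.25 (SE 0.0890, adjusted p = 0.112). Its 5 relatives ranged from -0.21 (KPNA6, SE 0.0606, adjusted p = 0.0535) to 0.115 (KPNA5, SE 0.0857), with KPNA3 at -0.13, KPNA4 at -0.04 and KPNA1 at 0.07. IPO5, an importin for ribosomal proteins, differed by -0.19 (adjusted p = 0.0676) and IPO8 by -0.09. IPO9 and IPO7 differed by -0.01 and -0.0075, IPO13 by 0.08, and IPO11, under background, by 0.075.

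XPO1, the export receptor for proteins with leucine-rich signals, was at 12.88, 12.91, 13.00 and 12.91 on stiff and at 12.72, 12.80, 12.77 and 12.79 on soft. The groups did not overlap, and the difference was -0.155 (SE 0.0579, adjusted p = 0.129). The other exportins differed by -0.17 (XPO6, which exports actin), -0.13 (XPO5, which exports microRNA precursors), -0.08 (XPO4) and -0.055 (XPO7), none past the threshold. Of the non-coding members, IPO5P1 and NUP50-DT differed by -0.195 and -0.15, with adjusted p of 0.0901 and 0.119. The 3 others, all under background, differed by 0.06 to 0.11.

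Choosing the probe set by its mean mattered for many of these genes. The 55 genes had 142 probe sets, and 62 of the 87 not used lay above background. Of these 62, 15 were called lower and 2 higher, where 9.50% and 8.67% of all such probe sets were, and their median difference was -0.14. A further 13 genes were lower only at a probe set that had not been used, so that 23 of the 55 were lower at 1 or more, against 8.74% of all genes. Genes with more probe sets have more chances of a call: among those with several, 19 of 39 were lower at 1 or more, against 12.3% of all such genes. Over all 142, 27 (19.0%) were called lower and 3 (2.11%) higher, against 5.26% and 4.88% of all probe sets with a single symbol. The choice can be close: the probe sets of IPO7 with the highest means, 11.826 and 11.815, differed by -0.0075 and -0.165, and its dimmest fell by 0.22 (adjusted p = 0.0437). NUP214 differed by -0.08 at the probe set used and fell by 0.34 at another (adjusted p = 0.00613), XPO5 by -0.13 and 0.40 (adjusted p = 0.00578), NUP58 by -0.17 and 0.43 (adjusted p = 0.0329) and XPO4 by -0.08 and 0.38 (adjusted p = 0.0154).

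In 3 genes a probe set rose. For XPO7 it was at 5.25, 5.35, 5.36 and 5.13 on stiff A to D and at 5.97, 6.07, 6.02 and 5.84 on soft A to D. The gap between the groups was clear, with a difference of 0.70 (SE 0.0754, adjusted p = 0.000527), but the level was under background in every array, while the probe sets of XPO7 above background differed by -0.055 and 0.0075. With the mean of all its probe sets XPO7 was called higher, by 0.22 (adjusted p = 0.0322). For RANBP2 a probe set rose by 0.31 (SE 0.0571, adjusted p = 0.00791), while its 3 others differed by -0.13 to -0.065. Probe set names mark 3 of the 4, this one included, as holding probes that can match several transcripts; RANBP2 has near-identical copies, so which gene was read is uncertain. For TPR 1 probe set rose by 0.48 (SE 0.132, adjusted p = 0.0430) and another differed by -0.52 (SE 0.158, adjusted p = 0.0651), while its 3 others lay between 0.03 and 0.065.

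**Figure D4:**
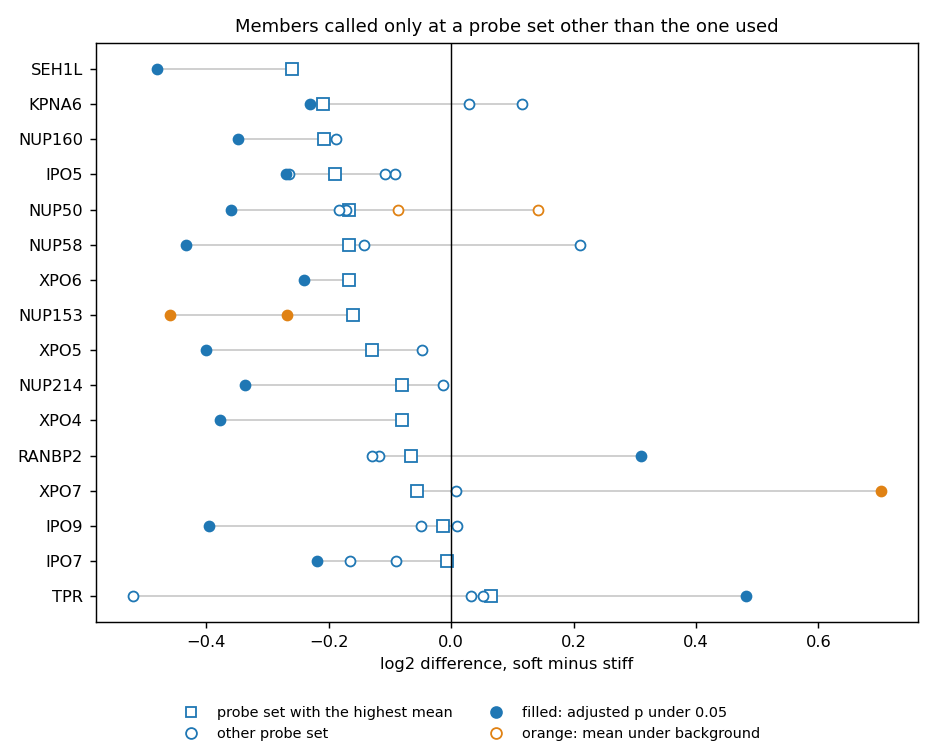
Log2 difference, soft minus stiff (horizontal axis), of every probe set of the 16 genes that were not called at the probe set used but had a call at another; squares mark the probe set used, filled symbols passed adjusted p under 0.05, and orange symbols had a mean under the background level of 6.52. Filled symbols lie left of 0 for 13 genes and right of 0 for RANBP2, XPO7 and TPR.

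The regulators that work with these receptors were taken from a list of other nuclear transport genes, of which 20 were measured outside the 55. Of these, 4 fell and none rose, where 5.93% and 4.39% of all genes did. At an unadjusted p under 0.05, 8 were lower and 1 higher, where 13.7% and 11.3% of all genes were. Of the 20 differences 19 were negative (47.6% of all genes), and the median was -0.10. Above background lay 19 of the 20 genes. Of all genes there 10.0% were called lower and 55.4% had a negative difference. RCC1, the exchange factor that loads Ran with GTP in the nucleus, differed by -0.37 (SE 0.0699, adjusted p = 0.00875). RANBP1, which helps to release Ran from receptors in the cytoplasm, differed by -0.31 (adjusted p = 0.0278), NXT1, a partner in messenger RNA export, by -0.25 (adjusted p = 0.0205) and the RNA helicase DDX19A by -0.22 (adjusted p = 0.0464). RAN itself differed by -0.145 (SE 0.0580, adjusted p = 0.157), CSE1L, which returns importin alpha to the cytoplasm, by -0.105 (adjusted p = 0.296) and the import receptor TNPO1 by -0.09 (adjusted p = 0.408). TNPO3, which imports splicing factors, was the only positive difference, at 0.185 (SE 0.0635, adjusted p = 0.100), with every soft array above every stiff array.

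Genes of dividing cells moved in the same direction. Of 30 proliferation markers, all above background, 14 were lower on soft and none higher, with a median of -0.285. All 30 differences were negative. Of all genes above background 10.0% were called lower, 7.37% were called higher and 55.4% had a negative difference. Array by array, their median deviation from the mean of the 8 arrays was 0.20 and 0.23 on stiff A and B, 0.05 and 0.08 on stiff C and D, and -0.30, -0.20, -0.03 and -0.05 on soft A to D. The nucleoporin medians were 0.08, 0.08, 0.05 and 0.085 on stiff A to D and -0.13, -0.11, -0.02 and -0.08 on soft A to D. Soft C was thus the soft array nearest to stiff in both lists, and the highest soft array for 26 of the 50 protein-coding genes. The lowest was soft A for 22 of the 50 and soft B for 21. Of all 19775 genes, soft C was the highest soft array for 4464, and the lowest was soft A for 5705 and soft B for 5311. Against stiff A and B alone the median difference was -0.37 for the proliferation markers and -0.18 for the nucleoporins, and against stiff C and D alone -0.21 and -0.16. What part cell division had in the nucleoporin differences was not tested.

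**Figure D5:**
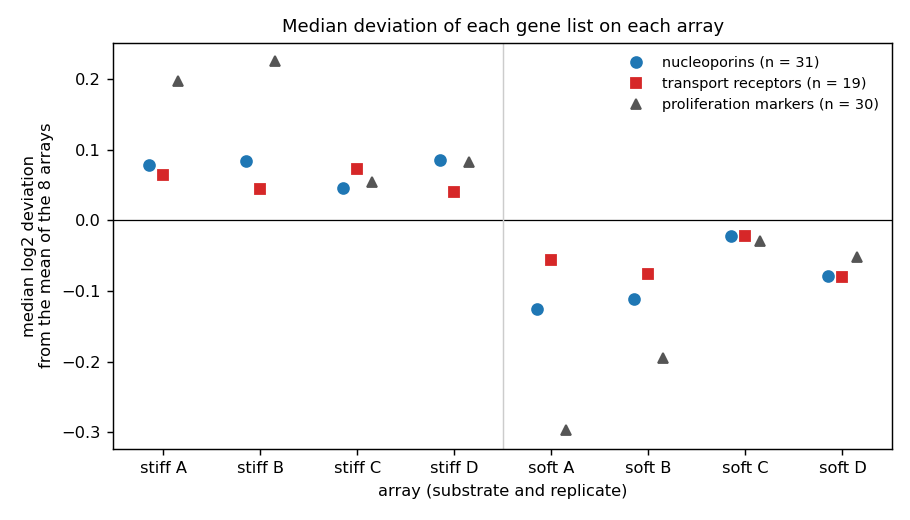
Median log2 deviation from the mean of the 8 arrays (vertical axis) on each array (horizontal axis) for the 31 nucleoporins, the 19 transport receptors and 30 proliferation markers. All 3 lists lie above 0 on the 4 stiff arrays and below 0 on the 4 soft arrays, and the proliferation markers spread more between replicates, from 0.05 to 0.23 on stiff and from -0.30 to -0.03 on soft.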

How the data were processed

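The deposited values are log2 RMA levels, 1 per probe set and array, rounded to 2 decimals. Per the submitters' processing notes they come from RMA. The log2 scale was read from the values; software, version and probe definition are unknown here. RMA equalises the arrays' distributions, so a shift common to all genes is removed and differences of dim probe sets are compressed. Of 54675 probe sets 62 controls were left out. Platform annotation gave 41091 of the remaining 54613 a single symbol, 1801 several (not used) and 11721 none. Updating symbols by gene identifier changed 0.

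Soft minus stiff was tested with limma 3.58.1 in R 4.3.3 (lmFit, eBayes without trend, two-sided, Benjamini-Hochberg over 54613 probe sets, threshold 0.05); SE is the moderated standard error, SD is not used. No dim probe set was filtered. The fit was checked on simulated data with known changes on the log2 scale. It recovered 50% of 100 changes of 0.5 and 93% of 100 changes of 1, with 8 false calls. Far fewer probe sets were changed there than were called in the data, so a call required a smaller unadjusted p. The recovered shares therefore do not give the sensitivity of the real fit. Every difference of the 55 genes at the probe set used was under 0.5 in size, the largest being -0.46. Changes that small were not simulated. The number of arrays limits the precision.

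All genes of the rule may be named; values on every array are given for those past the threshold and for NUP153, NUP98, RANBP2, TPR, KPNA2, KPNB1 and XPO1. Members, lists, motifs and alternatives were chosen with earlier results of these data known. Alternatives were 3 scalings, 2 filters, a variance model, array weights, a replicate block, 2 probe set rules, updated symbols, a stricter threshold, stiff pairs and leaving out each array.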

Additional observations from a re-analysis of the deposited data

Results flagged for a closer look

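In 114 groups of 4 arrays, those of the 50 protein-coding genes and of 7 other transport genes, 4 had an array set apart from the other 3, its gap to the nearest, over the group's range, passing Dixon's 95% critical value; chance flags about 1 group in 20. Stiff B of NUP62 was at 10.96 where the other stiff arrays were all at 10.92, so the flag rests on the small spread of the rest. Stiff B of NUP88 was at 11.65, with the nearest at 11.55. Stiff C of XPO6 was at 9.71, with the nearest at 9.63. Soft A of NUP62CL was at 7.63, with the nearest at 7.82.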

How the results depend on the processing

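The main values were 10 of the 55 genes lower, 0 higher, a median of -0.14, and 4 of the 20 other transport genes lower and 0 higher. The count of lower genes was 24 with genes above background alone, 21 of 50 above the median level (14.4% of all genes there), 20 with the trended, robust variance, 6 of 46 without probe sets marked for shared probes (5.74% of all genes), 2 against stiff A and B, 0 against stiff C and D and 1 (NUP155) at adjusted p under 0.01. With the replicate block it was 4 (IPO4, NDC1, NUP155 and NUP98; 4.13% of all genes); deviations of same-letter arrays correlated at -0.12 to 0.12, 1 soft array (A) correlated best with its own letter, and the letters share only a name. Leaving out 1 array gave 3 to 12, with medians of -0.155 to -0.125 and 0 higher. XPO7 was the 1 gene called higher, with the mean of all probe sets. The median was -0.11 with cyclic loess, -0.0983 averaging a gene's probe sets, and -0.105 without shared-probe sets. Of the 20 other transport genes, 8 were lower above background and with the trended, robust variance, 2 against stiff A and B and without shared-probe sets, 1 with the replicate block and at adjusted p under 0.01, 0 against stiff C and D, and 1 to 3 (0 higher) without 1 array; TNPO3 was the 1 higher above background, above the median level and with the trended, robust variance. Against stiff A and B, RANBP2 turned to 0.0275 and TPR to -0.05, neither past the threshold. NDC1, NUP155, NUP98 and NUP42 have no probe set without the mark, so that setting gave them no value. Of 500 values of the 23 named genes under alternatives, 367 kept direction and side of the threshold, 117 lost and 14 gained a call, and 2 turned. These values pool genes with and without a call in the main fit. Updating symbols changed 0, so that setting repeated the main fit. Of the 10 called genes, NUP155 kept its call in 20 of 21 settings, NDC1 in 19, and NUP98 and NUP42 in 11. Of 22 settings, IPO4 kept its call in 19, NUP37 and RAE1 in 11, and NUP43, NUP107 and NUP62 in 10. A stricter threshold lowers counts by construction, and at adjusted p under 0.01 1.44% of all genes were called lower. The causes of the other changes were not tested.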
